A study of Rattus norvegicus with 12 samples.

Results

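The genes described here make and move the sulfur compounds derived from cysteine in the heart. They are cysteine dioxygenase (Cdo1), cysteine sulfinic acid decarboxylase (Csad), the taurine transporter (Slc6a6), the catalytic and modifier subunits of glutamate-cysteine ligase (Gclc, Gclm), glutathione synthetase (Gss), cystathionine gamma-lyase (Cth) and cystathionine beta-synthase (Cbs). The members were chosen by gene name, with the difference between failing and control hearts already known, and every probe set annotated to exactly 1 of these symbols was taken. That gave 10 probe sets for 8 genes, out of 31042 probe sets and 14217 named genes on the arrays. Slc6a6 and Gclc each had 2 probe sets and the other genes had 1. Messenger RNA of heart tissue was measured in 6 failing and 6 control rat hearts, 1 array per heart, in a series on the passage from compensated hypertrophy to systolic failure in the spontaneously hypertensive rat, an inbred strain with high blood pressure. The labels call the hearts biological replicates and give no captopril or butyrate for either group used here. Neither the age of the rats nor the strain of the controls is stated in the labels, which limits what the control hearts stand for.

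Cysteine enters these reactions from food, from breakdown of protein and glutathione, or from methionine through Cbs and Cth, the transsulfuration enzymes. Cdo1 oxidises cysteine to cysteine sulfinate, which Csad decarboxylates to hypotaurine, the precursor of taurine. Glutamate-cysteine ligase and Gss use the same cysteine to build glutathione, the main thiol antioxidant of cells. Taurine is highly concentrated in heart muscle, which takes much of it from the blood through Slc6a6, and mice without Slc6a6 develop cardiomyopathy. Cdo1 and Csad are best known from the liver.

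Values are linear intensities scaled by the authors, given as the lowest, the median and the highest of 6 hearts, and differences are failing minus control on the log2 scale, with the standard error (SE) and 95% interval of a limma fit over all 31042 probe sets. Because the members were chosen with this contrast known, their differences are descriptions and carry no test. Arrays were alike in overall level, with median intensities from 120.8 to 144.2. Probe sets with a mean log2 intensity of at least 6.94 (intensity 123), 15521 in number and 9 of them members, are called brighter and the others dimmer or dim. Along the first principal component of the brighter probe sets (32.8% of the variance) failing replicate 5 lay at 7.25, against -40.3 to -13.2 for the other failing hearts. On the same axis control replicate 4 lay at -13.5, against 20.4 to 39.2 for the other control hearts. Without failing replicate 5, and without control replicate 4, the difference was 0.55 and 0.26 for Csad, 0.76 and 0.73 for Gss and -0.21 and -0.36 for Cbs, and the other members' values stand beside them.

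Cdo1 and Gss were the members whose failing hearts all lay above every control heart. Cdo1 was 3.22-fold and Gss 1.65-fold higher in failing hearts. Both Slc6a6 probe sets were higher by a similar amount, 1.71-fold and 1.66-fold, but with overlapping groups and with a large share of the difference from 1 heart. Gclm was nearly level (0.992-fold), Gclc and Csad were slightly higher, and the transsulfuration genes Cth and Cbs had wide intervals that span 0.

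Cdo1 commits cysteine to sulfinate and taurine. Its intensity was 924.4, 1715 and 4981 (lowest, median, highest) in failing hearts and 419.1, 512.8 and 854.6 in control hearts. The lowest failing heart, replicate 5, thus lay just above the highest control heart, replicate 2, while failing replicate 1 exceeded the next failing heart (2259.2) by far. On the log2 scale Cdo1 averaged 10.82 ± 0.86 in failing and 9.13 ± 0.46 in control hearts (SD, n = 6 each), a difference of 1.69 ± 0.38 (SE) with an interval from 0.86 to 2.51. Without failing replicate 1 the difference was 1.39, the smallest of the 12 values with a heart left out, and without failing replicate 5 it was 1.88, the largest. Without control replicate 4 it was 1.60. The coefficient of variation was 69.8% in failing and 33.0% in control hearts. The failing value includes replicate 1 at 4981, while the other failing hearts ran from 924.4 to 2259.2. These are whole tissue samples, in which a change in the number of cells of a type and a change in RNA per cell cannot be told apart.

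Csad, the next enzyme towards taurine, did not separate the groups. Its intensity was 162, 239.4 and 281.1 in failing hearts and 85.8, 162.6 and 243.3 in control hearts. Only 3 of 6 failing hearts exceeded the highest control heart, and control replicate 4, at 85.8, was far below the other control hearts. The difference was 0.45 ± 0.25 (interval from -0.098 to 1.00), and 0.26 without control replicate 4.

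Slc6a6 carries taurine into the cell together with sodium and chloride. By the brighter of its 2 probe sets its intensity was 2513.1, 3105.3 and 9219.7 in failing hearts and 1431.2, 2234.6 and 3088.6 in control hearts. By the other it was 1387.9, 1817.8 and 5166.6 in failing hearts and 622.7, 1231.9 and 2497 in control hearts. Failing replicate 1, the heart with the most Cdo1, was the highest on both probe sets, and the groups overlapped on both, with 3 and 1 of 6 failing hearts above all control hearts. The differences were 0.77 ± 0.33 (interval from 0.061 to 1.48) and 0.73 ± 0.38 (interval from -0.11 to 1.57). Without failing replicate 1 they were 0.50 and 0.46, without failing replicate 5 they were 0.88 and 0.84, and without control replicate 4 they were 0.82 and 0.74. The 2 probe sets ranked the hearts alike, with a Pearson r of 0.997 over the 6 failing and 0.913 over the 6 control hearts, and 0.989 over the failing hearts other than replicate 1, so the high value of that heart was not that of 1 probe set. Failing replicate 1 also stood apart in RNA quality, measured as the log2 signal at the 3' end minus that at the 5' end of the Gapdh and beta-actin control probe sets, at 0.698 against 0.504 to 0.534 in the other failing hearts and 0.36 to 0.778 in control hearts. With this measure as a covariate the difference was 0.80 and 0.78 for Slc6a6 and 1.72 for Cdo1.

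**Figure D1:**
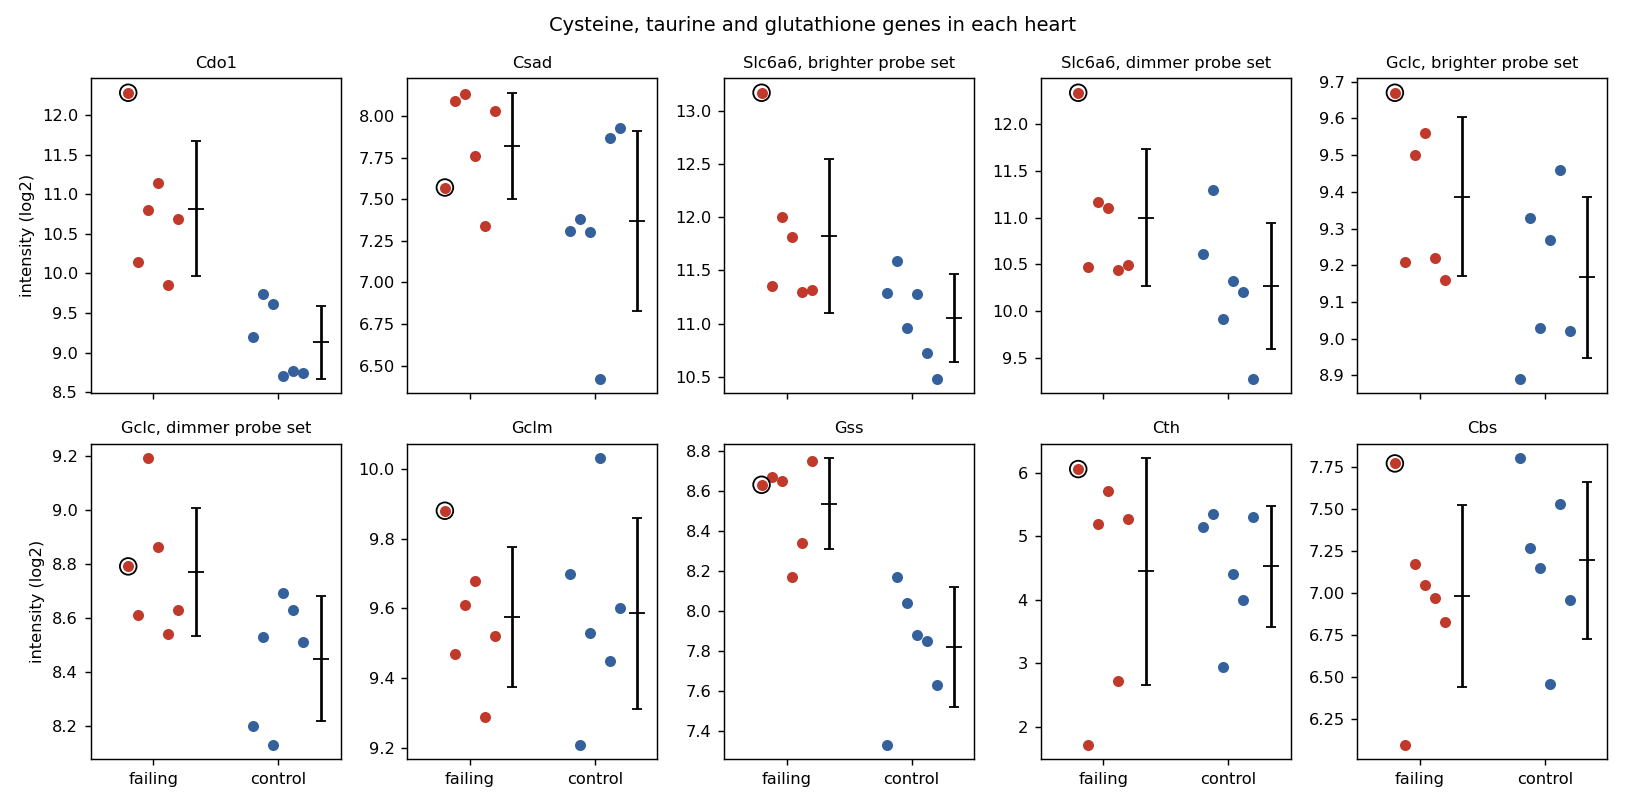
Log2 intensity of each of the 10 probe sets in each heart, failing hearts in red on the left and control hearts in blue on the right of every panel, with the mean and SD of 6 hearts beside the points; each panel has its own scale. The circled point is failing replicate 1, at 4981 for Cdo1 and 9219.7 for the brighter Slc6a6 probe set, and the groups are apart in the Cdo1 and Gss panels alone.

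Glutathione is made in 2 steps, and the genes of the steps differed. Gclc holds the active site of the first enzyme. By the brighter of its 2 probe sets Gclc was at 571, 660.6 and 813.9 in failing and 473.9, 570.4 and 704.6 in control hearts, and by the other at 371.4, 419.4 and 584.1 in failing and 279.2, 368.1 and 413.9 in control hearts. On both, 3 of 6 failing hearts exceeded all control hearts, and all 6 exceeded the control median. The differences were 0.22 ± 0.14 and 0.32 ± 0.15, with intervals from -0.094 to 0.53 and from -0.011 to 0.65. They were 0.25 and 0.37 without failing replicate 5, and 0.24 and 0.37 without control replicate 4. Gclm, which raises the activity of the catalytic subunit, was at 627.4, 757.8 and 939.3 in failing hearts and 590.5, 757.9 and 1045.8 in control hearts. Its medians were nearly equal, no failing heart exceeded the highest control heart (replicate 4), and the difference was -0.011 ± 0.15 with an interval from -0.35 to 0.32. With each heart left out it ran from -0.087 to 0.078, and it was above 0 when failing heart 2 or 5, or control heart 1 or 4, was omitted.

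Gss joins glycine to gamma-glutamylcysteine, the second step. Its intensity was 288.4, 398.8 and 430.4 in failing hearts and 160.9, 233.2 and 287.1 in control hearts. The groups were barely apart, since failing replicate 4 at 288.4 lay just above control replicate 2 at 287.1, but 4 failing hearts lay close together well above all control hearts. Gss averaged 8.54 ± 0.23 in failing and 7.82 ± 0.30 in control hearts (log2, SD, n = 6 each), a difference of 0.72 ± 0.16 (SE) with an interval from 0.36 to 1.08. It ran from 0.62 to 0.79 with each heart left out, and was 0.73 without control replicate 4. Gss therefore differed by less than Cdo1 but with less spread, and failing replicate 1, at 395.9, was not set apart.

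Cth and Cbs, which make cysteine from homocysteine, were the least informative members. Cth was the only member among the dimmer probe sets, at 3.3, 37.6 and 66.6 in failing and 7.7, 28.4 and 41.1 in control hearts. At that level its difference of -0.083 ± 0.77 has an interval from -1.76 to 1.59 and changed sign with the heart left out (-0.40 to 0.46, with 0.26 without failing replicate 5 and -0.11 without control replicate 4) and with an offset of 32 (0.10), so no fold is drawn from it. Cbs was at 68.6, 129.2 and 219 in failing and 88.2, 148.3 and 223.3 in control hearts, which overlapped almost wholly, and differed by -0.21 ± 0.28 (interval from -0.83 to 0.40). The Cbs value ran from -0.37 without failing replicate 1 to -0.037 without failing replicate 2, and was -0.36 without control replicate 4.

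Read against the whole table, 2 of the 10 probe sets (Cdo1 and Gss) had failing hearts wholly above control hearts, as did 0.989% of all probe sets and 1.78% of the brighter ones. No member had them wholly below, as did 0.535% of all and 0.844% of the brighter probe sets. The failing mean was above the control mean in 7 of the 10, and in 47.4% of all probe sets. The limma fit over all probe sets gave 0 calls at a Benjamini-Hochberg adjusted p of 0.05 (lowest adjusted p = 0.1), although 4495 (14.5%) had an unadjusted p under 0.05, 3 of the members among them. Refitted to the brighter probe sets it called 2.76% higher and 1.48% lower in failing hearts, and Cdo1 and Gss (limma adjusted p = 0.0284 and 0.029) were the 2 members among the higher ones. The Cdo1 call was lost when failing replicate 3, 4 or 6 or control replicate 1, 5 or 6 was left out (adjusted p up to 0.069), and the Gss call when failing replicate 3 or 6 or control replicate 1, 5 or 6 was left out (adjusted p up to 0.0728). The total of called probe sets was as unstable, from 24 without control replicate 6 to 2083 without control replicate 4. The median difference over the 10 members was 0.39, beside -0.024 over all probe sets. As the members were picked on this contrast, nothing is read from these counts.

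**Figure D2:**
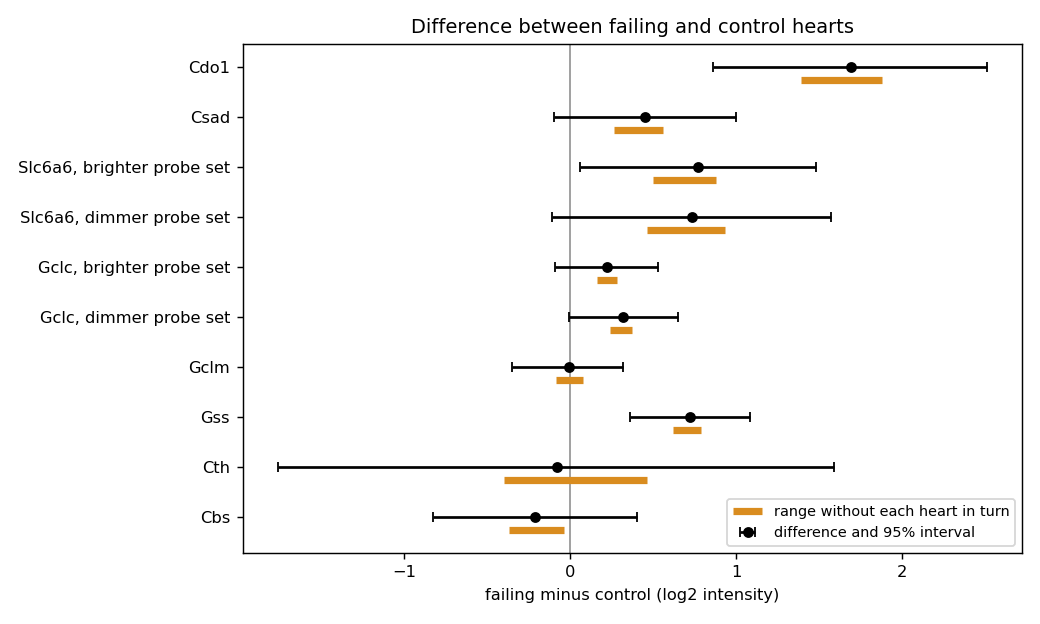
Difference between failing and control hearts for each of the 10 probe sets (log2 intensity, failing minus control). Black points and bars give the difference and its 95% interval from the limma fit over all probe sets, and orange bars give the range when each of the 12 hearts is left out in turn. The intervals of Cdo1, Gss and the brighter Slc6a6 probe set lie above 0.

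The spread among hearts of the same group was not used to choose the members, and it was set against Cdo1. Cdo1 was paired with each of the other 7 genes within the failing and within the control hearts, 14 relations in all, each by an exact two-sided permutation test over 720 pairings with Benjamini-Hochberg adjustment over the 14. The relation of Cdo1 with Gclm in failing hearts passed. The 6 failing hearts stood in the same order for both genes, from replicate 5 (924.4 for Cdo1 and 627.4 for Gclm) to replicate 1 (4981 and 939.3). Pearson's r was 0.975 (exact permutation p = 0.00139, the smallest the pairings can give, adjusted p = 0.0194) and Spearman's rho was 1 (exact permutation p = 0.00278, adjusted p = 0.0389). It was not carried by 1 heart, as r lay between 0.964 and 0.986 with each heart left out and was 0.949 without replicates 1 and 5, the farthest from the median. Among the 9408 other genes with a brighter probe set, 0.0425% had an r with Cdo1 at least as high in these hearts. In control hearts r was -0.618 and rho -0.714 (exact permutation p = 0.192 and 0.136, adjusted p = 0.447 and 0.318), with control replicate 4 lowest for Cdo1 and highest for Gclm. The difference between the groups in this relation was not tested.

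The relations of Slc6a6 and Gclc with Cdo1 in failing hearts did not pass the adjustment. For Slc6a6 r was 0.927 and rho 0.886 (exact permutation p = 0.0167 and 0.0333, adjusted p = 0.0972 and 0.156), and r dropped to 0.656 without failing replicates 1 and 5. For Gclc r was 0.841 and rho 0.771 (exact permutation p = 0.0208 and 0.103, adjusted p = 0.0972 and 0.288), and r was 0.741 without the same hearts. With the mean of both Gclc probe sets r was 0.666 (adjusted p = 0.428, exact permutation test). For Slc6a6 in control hearts r was 0.576 and rho 0.543 (exact permutation p = 0.229 and 0.297, adjusted p = 0.458 and 0.52). Gss, the other member with separate groups, showed no such order in failing hearts, with an r of 0.0853 and a rho of -0.257 (exact permutation p = 0.86 and 0.658, adjusted p = 0.926 and 0.922). The dim Cth had, in failing hearts, an r with Cdo1 of 0.81 and a rho of 0.886 (exact permutation p = 0.0417 and 0.0333, adjusted p = 0.146 and 0.156). The other 7 relations had adjusted p between 0.28 and 0.961 for r.

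**Figure D3:**
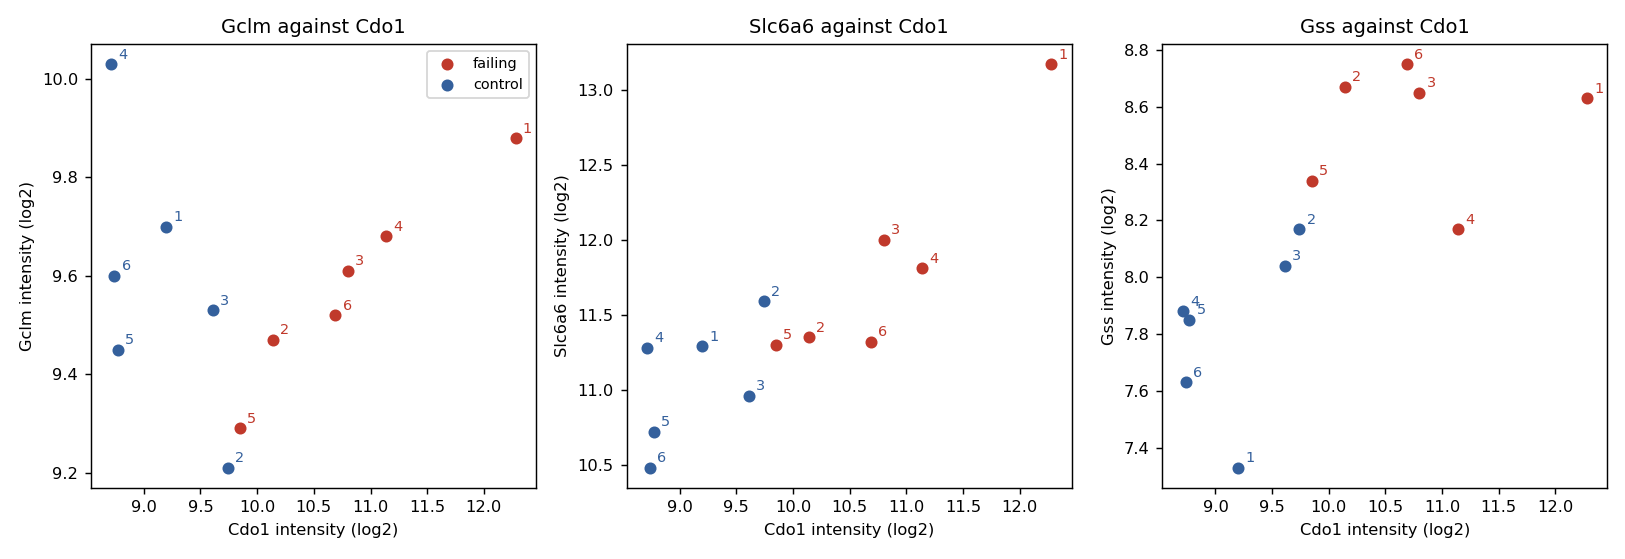
Log2 intensity of Gclm, Slc6a6 (brighter probe set) and Gss against that of Cdo1, 1 point per heart labelled with its replicate number, failing hearts in red and control hearts in blue. Gclm rises with Cdo1 over the 6 failing hearts (r = 0.975) but not over the 6 control hearts (r = -0.618), and Gss separates the groups without following Cdo1 among failing hearts.

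Because Gclm and Slc6a6 were the members closest to Cdo1 among failing hearts, and Gss the other member with separate groups, the promoters of these 3 genes are shown (RefSeq, GRCr8, 250 bases before to 50 after the annotated start, on the strand of the gene). Of the 8 genes 7 had a promoter in the table. The gene without one was Cdo1, so no motif was searched for it. Capitals mark the letters of the antioxidant response element searched on both strands, TGACNNNGC, the sequence class bound by the transcription factor NRF2. The windows are chr2:213031885-213032184 on the plus strand, chr4:125752252-125752551 on the plus strand and chr3:164538257-164538556 on the minus strand.
Gclm: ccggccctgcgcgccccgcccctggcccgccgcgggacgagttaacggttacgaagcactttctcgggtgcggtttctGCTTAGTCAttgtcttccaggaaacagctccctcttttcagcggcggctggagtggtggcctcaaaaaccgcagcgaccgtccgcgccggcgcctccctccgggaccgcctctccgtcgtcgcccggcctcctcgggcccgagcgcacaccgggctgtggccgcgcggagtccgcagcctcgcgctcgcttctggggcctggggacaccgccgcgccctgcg
Slc6a6: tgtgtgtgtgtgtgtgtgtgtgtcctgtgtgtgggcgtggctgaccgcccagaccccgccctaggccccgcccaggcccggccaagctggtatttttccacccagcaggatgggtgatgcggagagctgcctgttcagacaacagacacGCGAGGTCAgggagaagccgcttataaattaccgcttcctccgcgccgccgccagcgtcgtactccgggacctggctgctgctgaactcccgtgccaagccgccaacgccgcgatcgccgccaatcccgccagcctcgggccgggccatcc
Gss: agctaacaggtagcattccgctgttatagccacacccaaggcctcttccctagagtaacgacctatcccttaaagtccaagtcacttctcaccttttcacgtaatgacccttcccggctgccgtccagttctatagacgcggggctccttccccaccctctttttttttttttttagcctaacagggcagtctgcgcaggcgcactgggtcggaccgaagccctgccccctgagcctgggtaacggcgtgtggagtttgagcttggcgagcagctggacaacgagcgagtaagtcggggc
The Gclm window holds the letters once, on the opposite strand (read there as TGACTAAGC, from position -172 relative to the start), and the Slc6a6 window once, on the opposite strand (TGACCTCGC, from position -101). They are not in the windows of Gss, Gclc, Csad, Cth or Cbs, and 12.2% of 27457 rat promoters of this length hold them. Of 3 other motifs searched on both strands, the E-box CACGTG (6.65% of promoters) was found in the Cth window alone among the 7, and the C/EBP site TTNNGCAA (10.5%) and the C/EBP-ATF response element TGATGNAAT (1.05%) in none. No match overlapped another.

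The genes whose values ran most like those of Cdo1 were sought among 9408 genes with a brighter probe set, over the 12 hearts after each group had been centred on its own mean. The highest Pearson correlations were those of Rhobtb1 (0.902), Plb1 (0.887), Srebf1 (0.879), Atp9a (0.877) and Ccny (0.866), and the lowest were those of Zfp180 (-0.943), Ddx31 (-0.936) and Chfr (-0.89). Of the members Slc6a6 ranked 14 by this measure (0.845), Cbs 295 (0.621), Gclc 867 (0.462), Gclm 2172 (0.265), Gss 2561 (0.22) and Csad 5138 (-0.0547). Without failing replicate 1 Slc6a6 ranked 165 (0.631) and Gclm 5792 (-0.0944). The measure pools both groups, in which the r of Gclm with Cdo1 had opposite signs. Without that heart Ccny ranked 1 (0.888) while Srebf1 ranked 57 (0.709), so part of the order rests on it. The hearts share 1 array each with all their genes, and these correlations carry no test.

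Genes of the same pathways outside the members were taken from 7 lists, 115 of 123 genes being measured and 90 of them by a brighter probe set. In the fit to the brighter probe sets 5 of the 90 rose (5.56%) and 2 fell (2.22%) in failing hearts, beside 2.76% and 1.48% of all brighter probe sets. These shares are of unlike units, genes by their brightest probe set against all brighter probe sets, so no excess is read from them. A fit to the mean of all probe sets of a gene called 316 of 7109 brighter genes higher and 200 lower, with 6 and 3 pathway genes among them. The median difference of the 90 was 0.083 beside -0.02 over all 9409 brighter genes. None of the 115 passed in the fit over all probe sets (lowest adjusted p = 0.105). None of the 7 calls held in every one of the 12 fits with a heart left out, and the number of calls ran from 0 without control replicate 6 to 17 without control replicate 4. Each such gene was represented by its brightest probe set, and the 14 named below by rule had no other. This was not checked for Slc3a2, Mgst3, Gstz1 and Mgst2, which are also named.

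Of the 7 calls 3 were enzymes that use glutathione, Gpx3, Gsta1 and Gstm5. Gpx3, the secreted glutathione peroxidase, had intensities of 16263, 22353.2 and 27446.3 in failing hearts and 10798.2, 13605.8 and 17574.2 in control hearts. Its groups overlapped slightly, and it rose by 0.71 ± 0.15 (1.63-fold, limma adjusted p = 0.0301, n = 6 per group). Of 18 brighter genes of glutathione breakdown, recycling and peroxidases, Gpx3 rose and Abcc4, an efflux transporter, fell by 0.53 on the log2 scale (SE 0.13, adjusted p = 0.0454). Gsr, which reduces oxidised glutathione, was at 220.7, 273.4 and 305.2 in failing and 213.2, 243.6 and 389.7 in control hearts, a difference of 0.011 ± 0.15 (adjusted p = 0.973). Of 17 brighter glutathione transferases 2 rose and none fell. Mgst3 and Gstz1, named here after their values were seen, differed by -0.63 ± 0.19 and -0.53 ± 0.15 without passing (limma adjusted p = 0.0698 and 0.0626). Mgst2, likewise named, differed by 0.64 ± 0.23 without passing (limma adjusted p = 0.113). Gsta1 was at 2404.8, 2819 and 5253.1 in failing and 1313.9, 1644.6 and 2269.4 in control hearts, which did not overlap, and rose by 0.97 ± 0.21 (adjusted p = 0.0316). Gstm5 rose by 0.56 ± 0.14 (adjusted p = 0.0476). Transferases of a class are close copies of each other, and signal from related copies cannot be told apart here.

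Among the genes that supply or carry the precursors 1 passed. Of 9 brighter transporters of cystine, cysteine, glutamate and related amino acids 1 fell, Slc38a2, a sodium-coupled neutral amino acid transporter, at 2472.1, 2993.9 and 3260.3 in failing hearts and 3266.2, 4041.4 and 4538.1 in control hearts. The groups just failed to touch, and the difference was -0.43 ± 0.11 (adjusted p = 0.0472). Slc3a2, the heavy chain shared by several amino acid exchangers and named here after its values were seen, differed by more without passing (0.91 ± 0.28, 1.88-fold, adjusted p = 0.0725). Slc7a11, the light chain of the cystine and glutamate exchanger, was dim, at 32.7, 45.8 and 51.8 in failing and 4.4, 51.2 and 88.4 in control hearts (0.28 ± 0.61). None of 13 brighter genes of transsulfuration, the methionine cycle and cysteine catabolism passed, and the smallest p was that of Sqor, a mitochondrial enzyme that oxidises sulfide (0.36 ± 0.12, adjusted p = 0.0903). None of 2 brighter genes of taurine and hypotaurine handling passed. Fmo1, a flavin monooxygenase reported to oxidise hypotaurine to taurine, had the smallest p there, at 1292.2, 2210.6 and 2775.2 in failing and 925, 1434.4 and 1535.5 in control hearts (0.58 ± 0.18, adjusted p = 0.0803). Ado, which makes hypotaurine from cysteamine, and Gadl1, a decarboxylase related to Csad, were dim and differed by 0.44 ± 0.45 and -1.34 ± 0.81 (adjusted p = 0.688 and 0.475 over all probe sets).

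Of 17 brighter regulators and targets of NRF2, a transcription factor that drives glutathione genes under oxidative stress, 1 rose. This was Mafk, a small partner protein of NRF2, at 1251.7, 1520.3 and 2005.9 in failing and 753.2, 1035.2 and 1244.8 in control hearts, which did not overlap (0.66 ± 0.16, adjusted p = 0.0387). Nfe2l2, the gene of NRF2 itself, was at 2108.1, 2446 and 2640.2 in failing and 1813.4, 1900.2 and 2424.3 in control hearts (0.27 ± 0.11, adjusted p = 0.138). Of 14 brighter genes of the ATF4 branch of the stress response and of serine synthesis 1 rose, the stress-induced Nupr1, at 2668.4, 5629.2 and 8342 in failing and 1145.3, 1909.8 and 2410.5 in control hearts (1.59 ± 0.27, adjusted p = 0.017). The Nupr1 call held in 11 of the 12 fits with a heart left out, ending without control replicate 6 (adjusted p = 0.0519). The calls of Gpx3 and Gsta1 held in 5 of 12 each, of Mafk in 4, of Gstm5 in 3 and of Slc38a2 and Abcc4 in 2 each (adjusted p up to 0.0768, 0.0768, 0.0874, 0.107, 0.105 and 0.0989).

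**Figure D4:**
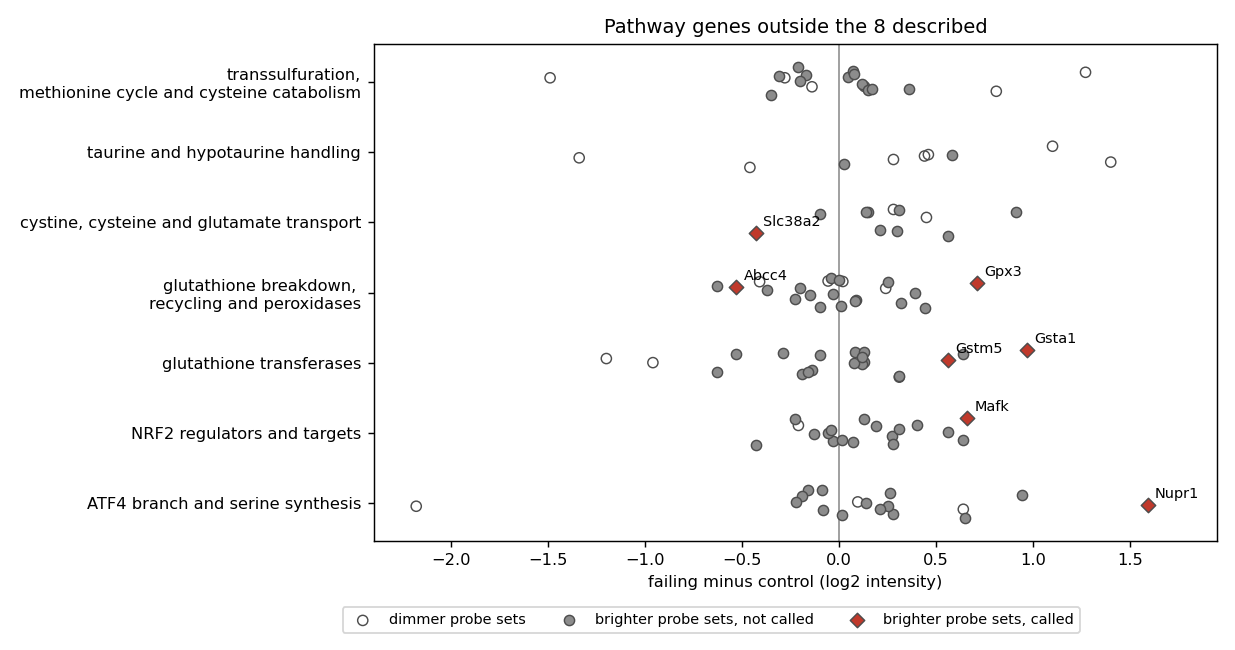
Difference between failing and control hearts (log2 intensity, failing minus control) for the 115 measured genes of the 7 pathway lists, 1 row of points per list, scattered vertically for legibility. Open circles are genes of the dimmer probe sets, grey circles brighter genes that were not called, and red diamonds the 7 called by limma among the brighter probe sets, 5 to the right of 0 and 2 to the left.

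Of the brighter cell type markers 4 rose and 1 fell. Among all brighter probe sets, counted by probe set and not by gene, 2.76% were called higher and 1.48% lower, and nothing is read from the marker count. Of 8 fibroblast markers 2 rose (Dcn and Mfap5), and their summed intensity ran from 52358 to 100555 in failing and from 41430 to 62330 in control hearts. Failing replicate 1, the heart with the most Cdo1 and Slc6a6, had the lowest fibroblast sum of the failing hearts, 52358. Among failing hearts it also had the lowest smooth muscle (3752) and T, B and NK cell (278) sums. Its endothelial (15167), adipocyte (13451) and red blood cell (44438) sums were the highest of the failing hearts. Of 7 macrophage markers 1 rose (Mrc1), with sums from 5344 to 14255 in failing and from 4172 to 6457 in control hearts. Adgre1 differed by -0.58 without passing, and the other macrophage markers by 0.47 (Csf1r) to 1.27 (Cd163). Of 5 endothelial markers 1 rose (Vwf), with sums from 10079 to 15167 in failing and from 8462 to 10875 in control hearts, while Tie1 and Kdr differed by -0.36 and -0.12 without passing. Of 5 smooth muscle markers 1 fell (Smtn, by 0.67 on the log2 scale), whereas Cnn1, Tagln, Acta2 and Myh11 differed by 1.02, 0.99, 0.60 and 0.43 without passing, and the sums ran from 3752 to 6701 in failing and from 3121 to 4464 in control hearts. These calls held in 2 (Mrc1), 3 (Mfap5 and Smtn) or 4 (Dcn and Vwf) of the 12 fits with a heart left out. None of 6 adipocyte markers passed, only 2 of which were brighter. Their sums ran from 11245 to 13451 in failing and from 13263 to 17653 in control hearts, and adiponectin (Adipoq) and perilipin 1 (Plin1) were dim, at 4.38 and 4.15 in failing and 4.68 and 5.94 in control hearts (mean log2). The sums were mostly Fabp4 (mean log2 13.55 in failing and 13.82 in control hearts). Fabp4, Plin1 and Adipoq differed by -0.26, -1.8 and -0.3, whereas Cfd, Cidec and Lep differed by 0.73, 0.67 and 0.26. None of the 7 cardiomyocyte markers passed. Their differences ran from -1.03 (Myh6, limma adjusted p = 0.0774) to -0.044 (sums from 160632 to 272513 in failing and from 164425 to 280882 in control hearts). None of the 4 atrial markers passed, all of them brighter. Brighter markers were 1 of 3 for the epicardium, 2 of 3 for red blood cells and 1 of 6 for T, B and NK cells, and none passed. Differences in these 3 lists ran from -1.0 to 0.37, from -1.03 to 0.069 and from -2.07 to 0.49. Dim markers, also those of adipocytes, stood only in the fit over all probe sets, which called nothing, so their lack of a call says little. The T, B and NK cell sum was from 278 to 655 in failing hearts. In control hearts it was from 337 to 479 other than in replicate 4, where it was 4926, mostly from Nkg7 (log2 intensity 12.16). The part of these cells in the values of the members was not tested.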

How the data were processed

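The authors deposited 1 table of linear probe set intensity for 12 arrays of 1 colour. Per the labels' protocols, total RNA was isolated with Trizol, purified with RNeasy, and 6 µg of it was used to make biotinylated cRNA. The submitters' processing notes name RMA, but the deposited values are linear and share a mean of 500.19 to 500.23 after trimming 2% from each end, so the summary method is unknown, and a common shift of most genes would not be seen. No depth exists for arrays, and their number limits the precision.

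Intensities were put on the log2 scale with no offset. Leaving out 57 control probe sets left 31042, of which 20826 had 1 gene symbol, 436 several and 9780 none listed. Groups and replicate numbers came from the titles. Failing and control hearts were compared across all probe sets with limma 3.58.1 in R 4.3.3 (group as the only term, two-sided, Benjamini-Hochberg adjustment, threshold 0.05), and again over the brighter probe sets, those at or above the median of all means. Pathway genes are said to have risen or fallen where they passed among the brighter probe sets, with the SE of that fit; dim genes carry the SE of the fit over all probe sets. Named pathway genes were, per list, up to 3 called in each direction, otherwise the gene with the smallest p, and always Slc7a11, Nfe2l2, Gsr, Ado and Gadl1. Members, lists and tests were chosen with earlier results of these data known. Scripts used Python 3.11.15 and matplotlib 3.10.9, and the fits were tested on simulated data. Alternatives covered offset, normalization, centring, filter, variance model, array weights, an RNA quality covariate, the replicate number as a block and leaving out each heart.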

Additional observations from a re-analysis of the deposited data

Results flagged for a closer look

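Of 48 groups of 6 hearts (2 for each of the 10 member probe sets and 14 named pathway genes), 4 held a heart whose gap to its neighbour, as a share of the group's range, exceeded Dixon's 95% critical value, and chance gives about 1 in 20 such groups. None was a member. Fmo1 was lowest in control replicate 5, at 9.85 (log2), against 10.40 for the next heart. Gadl1 was lowest in failing replicate 2, at 2.35, and in control replicate 6, at 5.17, and Slc7a11 was lowest in control replicate 2, at 2.14. These Gadl1 and Slc7a11 values lie at intensities of 5.1, 35.9 and 4.4, near the bottom of the scale.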

How the results depend on the processing

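Over all probe sets the 0 calls stayed at 0 with quantile normalization, median centring, array weights, the RNA quality covariate and the replicate block. They became 46 with an offset of 32, 548 with a trended and robust variance, 494 among probe sets with a mean of at least log2 of 100 and 659 among the brighter ones, and ran from 0 to 160 with each heart left out. The 659 calls among the brighter probe sets became 281 with the replicate block, 1014 with the trended and robust variance and 2270 with array weights, and ran from 24 to 2083 with each heart left out. The 7 calls among pathway genes became 4 with median centring, 2 with the replicate block, 16 with array weights and 4 with the filter at log2 of 100. With each heart left out they ran from 0 to 17. Under the replicate block the adjusted p was 0.0629 for Gpx3 and 0.0883 for Mafk. Deviations of same-numbered hearts were weakly related (r from -0.0602 to 0.232). The highest r of a failing heart with a control heart of another number ran from 0.0502 to 0.345. For replicates 1 and 4 the same number gave the higher r (0.232 against 0.101 and 0.0696 against 0.0502), and for the others it did not. The numbers were not treated as pairs. The cause of these moves was not tested.

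The 10 member differences moved by less than the spread between hearts in all 180 refits. Leaving out 1 of 6 hearts can move a group mean by only part of that spread, so those refits could hardly show more. The Cth and Gclm differences changed sign in some refits, and that of the brighter Slc6a6 probe set fell from 0.77 to 0.5 without failing replicate 1. The relation of Cdo1 with Gclm in failing hearts passed under each of the 4 alternatives run (exact permutation test, adjusted p = 0.0194 in each). That p is equal throughout because it rests each time on the smallest value the 720 pairings can give. The mean of all probe sets of a gene could not change this relation, as both genes have 1 probe set. With an offset of 32, quantile normalization and median centring r was 0.975, 0.982 and 0.985. Median centring brought a further call, Gclc in failing hearts (r = 0.936, adjusted p = 0.0389), making 2. The r of Csad with Cdo1 changed sign, to 0.00906 in failing and 0.131 in control hearts with median centring and to 0.113 in control hearts with quantile normalization. Gsr turned to -0.022 with quantile normalization and lay between -0.05 and 0.12 with each heart left out. Leaving out 1 heart leaves 5 in a group, so the relations were then given as r with no test.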
